A study of Homo sapiens with 6 samples.

Results

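DCAF7 is a WD-repeat scaffold protein. The DYRK (dual-specificity tyrosine-regulated) and HIPK (homeodomain-interacting) protein kinases are an enzyme family, some members of which DCAF7 is known to bind. The DCAF7 transcript and those of 7 kinases of the family, DYRK1A, DYRK1B, DYRK2, DYRK4, HIPK1, HIPK2 and HIPK3, were read in Ewing sarcoma cells depleted of EHD1. These 8 genes were picked by symbol from the 60676 rows of the count table, because DCAF7 was strongly lower in the depleted cells. All 8 were among the 16785 genes tested, with at least 138 counts in every library. The fall of DCAF7 was the reason for the choice, so no p-value is printed for any of the 8. Where the text says which of the 8 passed a threshold, the call comes from the contrast that set the choice. Such calls are description only.

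TC71 is an established human Ewing sarcoma line. Both groups were TC71 cells carrying a doxycycline (Dox)-inducible lentiviral shRNA construct that also encodes GFP, and both received 0.5 µg/ml Dox for 3 days. The control group expressed a non-targeting shRNA (shNTC+Dox), and the other an shRNA against EHD1, a regulator of endocytic traffic (shEHD1+Dox). The lines were polyclonal populations, the sources used here do not say which EHD1 shRNA these libraries carried, and 3 libraries stood for each group (n = 3 in every mean below). The comparison asks how the transcriptome differs between these lines when EHD1 is depleted. The paper also shows RNA-seq of both lines without Dox, and a rescue of EHD1 in its knockout lines. The libraries read here include no group without Dox and no rescue of EHD1. Loss of EHD1, off-target effects of the shRNA and differences between the transduced lines therefore cannot be told apart. Below, "after depletion" names the shEHD1+Dox group only.

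DCAF7 binds DYRK1A, DYRK1B and HIPK2 and links them to some of their partners, and its name comes from its association with the DDB1 and CUL4 ubiquitin ligase. DYRK kinases phosphorylate a tyrosine in their own activation loop while they are being made and then act on serine and threonine. DYRK1A phosphorylates LIN52, which lets the DREAM complex assemble and repress cell cycle genes in resting cells, and it phosphorylates NFAT factors, which opposes calcineurin. HIPK kinases are mostly nuclear, bind homeodomain factors and corepressors, and act on transcription.

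The targeted gene checked the labels. EHD1 was at 27.2 ± 0.81 CPM (counts per 1000000 counts of the library, with TMM factors; mean ± SD) in the controls and 8.02 ± 1.18 CPM after depletion. Its log2 fold change (log2FC, shEHD1+Dox over shNTC+Dox, given ± its standard error) was -1.76 ± 0.12, at an edgeR adjusted p of 1.35e-04. Library totals ran from 22711235 to 30582187 counts. The 8 Ewing markers CD99, NR0B1, NKX2-2, LIPI, STEAP1, PRKCB, BCL11B and GLI1 were all present, summing to 1247 to 1332 CPM in shNTC+Dox and 1282 to 1406 CPM in shEHD1+Dox. By edgeR, 3 of them passed an adjusted p of 0.05, with CD99 higher (log2FC 0.33 ± 0.09) and STEAP1 (-0.43 ± 0.07) and BCL11B (-0.75 ± 0.09) lower. The 6 fibroblast markers summed to 257 to 344 CPM in the controls and 449 to 512 CPM after depletion, and 2 of them passed, in opposite directions. COL3A1, most of that sum, rose (log2FC 0.89 ± 0.10) and DCN fell (-1.01 ± 0.19). Blood markers summed to 3.34 to 5.63 CPM and 2.10 to 4.81 CPM, mostly CD68, with CD3E at 0 counts. Epithelial markers summed to 27.2 to 31.5 CPM and 34.1 to 40.2 CPM, mostly KRT18 and KRT8, with EPCAM at most at 5 counts and CDH1 at most at 2 in a library. The part of these markers in the results below was not tested. On the second principal component, shNTC+Dox replicate 3 stood apart from the other controls (-38.7 against 32.8 and 29.1).

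DCAF7 (ENSG00000136485) lies on the plus strand of chromosome 17, from 63550222 to 63594286 in hg38. The controls had 9126, 9839 and 7538 counts of it, and the depleted cells 4161, 3412 and 4609. Scaled to library size, these were 347, 355 and 338 CPM against 146, 139 and 149 CPM. No depleted library reached any control, and libraries of a group lay close together, with an SD of 2.57% of the mean in shNTC+Dox and 3.35% in shEHD1+Dox. The transcript was left at 41.8% of its control level (log2FC -1.26 ± 0.06). Of all tested genes, 298 had a lower log2FC. Without shNTC+Dox replicate 3 the value was -1.28. In bulk RNA, fewer cells with the transcript and less of it per cell cannot be told apart.

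Of the 7 kinases, HIPK1, HIPK2 and DYRK4 were higher after depletion, and DYRK1A, DYRK1B, DYRK2 and HIPK3 stayed within 0.18 of the control on the log2 scale. HIPK1 (ENSG00000163349, chromosome 1 from 113929324 to 113977869, plus strand), a nuclear kinase that acts on transcription factors and corepressors, was the most abundant kinase of the set. It was at 204, 193 and 201 CPM in the controls and at 322, 359 and 343 CPM in the depleted libraries. The groups did not overlap, and the ratio of the means was 1.71 (log2FC 0.78 ± 0.07).

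HIPK2 (ENSG00000064393, chromosome 7 from 139561570 to 139777998, minus strand), a kinase of the response to DNA damage, was far scarcer. Its level was 13.3, 13.5 and 11.3 CPM in shNTC+Dox and 20.0, 21.0 and 19.1 CPM in shEHD1+Dox, again without overlap. The log2FC was 0.66 ± 0.11, and 0.58 without shNTC+Dox replicate 3, the lowest control library. DYRK4 (ENSG00000010219, chromosome 12 from 4562208 to 4615302, plus strand), among the least studied of these kinases, was at 7.26, 7.01 and 6.18 CPM against 11.8, 11.2 and 12.3 CPM. It too showed no overlap (log2FC 0.79 ± 0.13, or 0.72 without shNTC+Dox replicate 3). None of these 3 rises reached 2-fold.

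HIPK3 (ENSG00000110422, chromosome 11 from 33256672 to 33357023, plus strand) did not move as the other HIPK transcripts did. It was at 88.7, 90.9 and 99.1 CPM in the controls and 86.1, 92.5 and 88.2 CPM after depletion. These ranges overlapped, and the log2FC was -0.06 ± 0.07.

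DYRK1A (ENSG00000157540, chromosome 21 from 37365573 to 37526358, plus strand), the dosage-sensitive chromosome 21 kinase, was at 68.1, 64.2 and 74.0 CPM in the controls and 67.4, 75.0 and 63.2 CPM after depletion. The ranges overlapped almost entirely (log2FC 0.00 ± 0.09). DYRK1B (ENSG00000105204, chromosome 19 from 39825350 to 39834201, minus strand), its nearest relative and a kinase of quiescent cells, was at 7.22, 8.09 and 8.37 CPM against 8.53, 8.13 and 9.27 CPM. The libraries of the groups interleaved (log2FC 0.13 ± 0.13).

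DYRK2 (ENSG00000127334, chromosome 12 from 67648338 to 67665406, plus strand), which also serves as a scaffold for a ubiquitin ligase, was at 72.3, 76.0 and 76.0 CPM in the controls and 62.7, 68.9 and 66.7 CPM after depletion. All depleted libraries were below the controls by a small margin, with a log2FC of -0.18 ± 0.07 that missed the 0.05 threshold on the adjusted p.

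**Figure D1:**
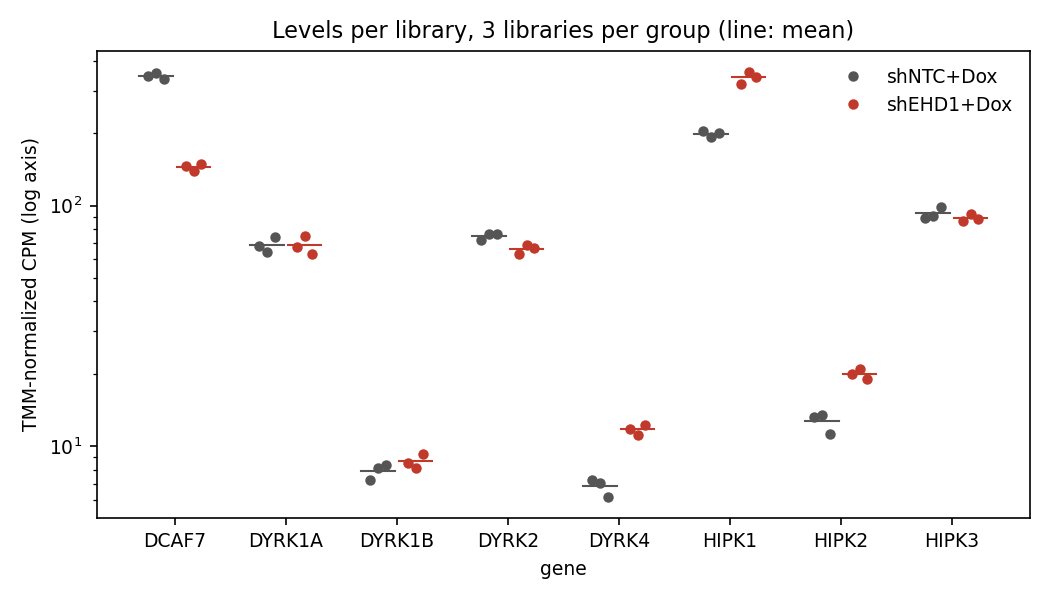
TMM-normalized CPM (log axis) of DCAF7 and 7 DYRK and HIPK kinases in each of 3 shNTC+Dox (grey) and 3 shEHD1+Dox (red) libraries, with the group mean as a line. DCAF7 sits at 338 to 355 CPM in the controls and 139 to 149 CPM in shEHD1+Dox, while HIPK1, HIPK2 and DYRK4 are higher in every shEHD1+Dox library.

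As counts of calls, 4 of the 8 genes (DCAF7, HIPK1, HIPK2 and DYRK4) had an edgeR adjusted p under 0.05, where 17.3% of all tested genes did. Of these, 3 were higher (8.59% of tested genes) and 1 was lower (8.75% of tested genes). With a 2-fold threshold added, 1 of the 8 was left, DCAF7, whose fall had set the choice, beside 2.82% of tested genes (1.74% lower and 1.08% higher). The groups did not overlap for 5 of the 8, DYRK2 being the fifth, as for 39.3% of tested genes. That was 3 higher (19.9% of tested genes) and 2 lower (19.4% of tested genes). Since the choice of genes used this contrast, nothing is read from these shares.

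**Figure D2:**
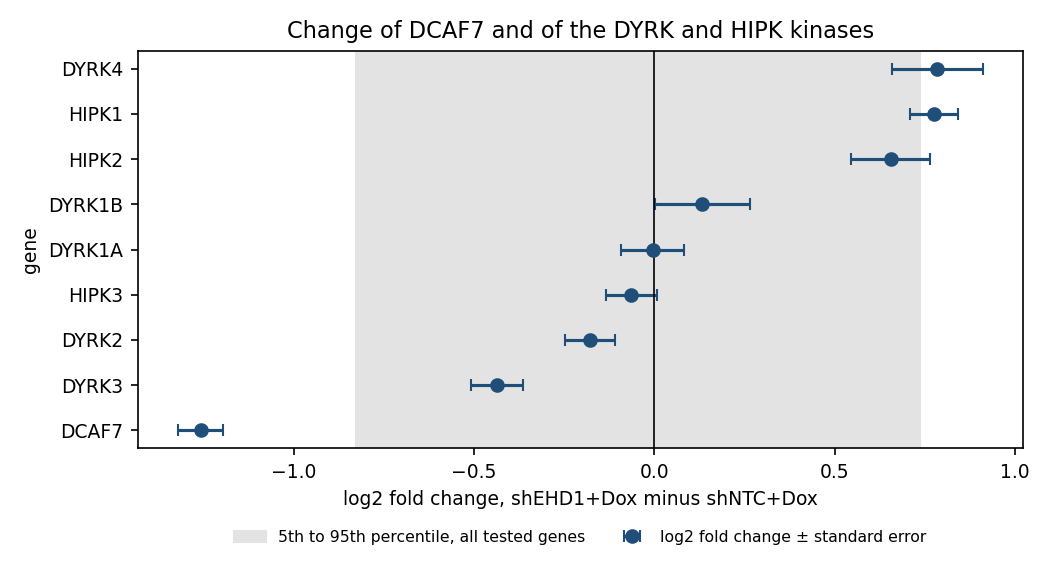
Log2 fold change (shEHD1+Dox minus shNTC+Dox) with its standard error for DCAF7, the 7 kinases and the related kinase DYRK3; the grey band runs from the 5th to the 95th percentile of all tested genes, -0.83 to 0.74. DCAF7 at -1.26 lies below the band, and DYRK4 at 0.79 and HIPK1 at 0.78 lie just above it.

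Levels of different genes were compared per length, as CPM per kb of merged exons. In shNTC+Dox, DCAF7 ranked first at 27.2 ± 0.70 CPM per kb. HIPK1 followed at 21.8 ± 0.65, HIPK3 at 11.4 ± 0.67 and DYRK2 at 7.90 ± 0.23 CPM per kb. DYRK1A at 2.57 ± 0.18 and DYRK1B at 2.47 ± 0.19 CPM per kb could not be ranked, since their libraries overlapped. DYRK4 at 0.97 ± 0.08 and HIPK2 at 0.81 ± 0.08 CPM per kb came last. The ranges of all neighbours in this order except DYRK1A and DYRK1B were apart.

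In shEHD1+Dox the scaffold no longer led. HIPK1 was first at 37.3 ± 2.07 CPM per kb, and DCAF7 at 11.4 ± 0.38 CPM per kb overlapped with HIPK3 at 10.9 ± 0.40. DYRK2 was at 6.98 ± 0.33 CPM per kb. DYRK1B at 2.71 ± 0.18 and DYRK1A at 2.56 ± 0.22 CPM per kb again overlapped, and DYRK4 at 1.67 ± 0.08 and HIPK2 at 1.28 ± 0.06 CPM per kb were again last. The merged exons of DCAF7 (12752 bases) are longer than its longest transcript (6711 bases). On the latter its level was 51.6 CPM per kb in shNTC+Dox and 21.6 in shEHD1+Dox. On longest transcripts HIPK1 was at 24.3 and 41.6 CPM per kb and HIPK3 at 12.2 and 11.7. The closeness of DCAF7 and HIPK3 in shEHD1+Dox thus belongs to merged exons only. DYRK1A was at 3.91 and 3.90 CPM per kb, DYRK1B at 2.90 and 3.17 and DYRK4 at 2.08 and 3.59. In shEHD1+Dox this put DYRK1B below DYRK4.

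Summed per length, the 4 DYRK transcripts were at 13.9 ± 0.41 CPM per kb in the controls and 13.9 ± 0.38 after depletion. The 3 HIPK transcripts summed to 34.0 ± 0.87 and 49.5 ± 2.49 CPM per kb. HIPK1 made up 45.5 ± 1.31% of the summed level of the 7 kinases in shNTC+Dox and 58.8 ± 0.63% in shEHD1+Dox. The level of DCAF7 relative to the summed kinases was 0.568 ± 0.027 in the controls and 0.180 ± 0.013 in shEHD1+Dox. These are ratios of RNA levels and rest on merged-exon lengths. Protein levels and binding were not measured in these libraries, and the sum includes kinases not named here as binding DCAF7. The kinase sum went from 47.9 ± 1.07 to 63.4 ± 2.85 CPM per kb, and HIPK1 alone from 21.8 to 37.3. DYRK1A, DYRK1B and HIPK2, known to bind DCAF7, were at 2.57, 2.47 and 0.81 CPM per kb in shNTC+Dox. In shEHD1+Dox they were at 2.56, 2.71 and 1.28 CPM per kb.

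**Figure D3:**
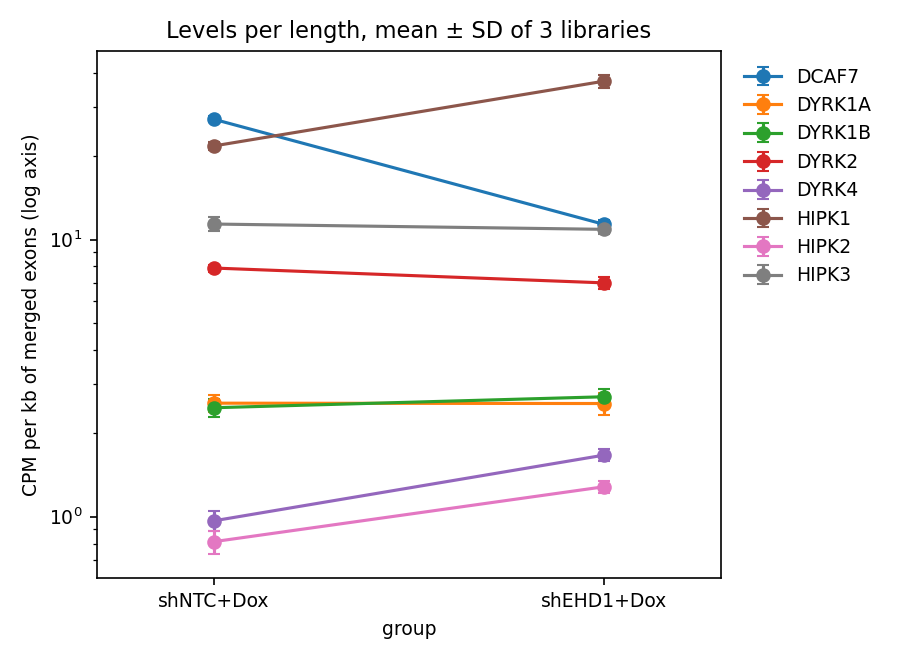
CPM per kb of merged exons (log axis), mean ± SD of 3 libraries, in shNTC+Dox and shEHD1+Dox. The lines of DCAF7 (27.2 to 11.4) and HIPK1 (21.8 to 37.3) cross, and those of DYRK1A, DYRK1B and HIPK3 run nearly level.

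Some exon bases of these genes also belong to other genes. DYRK1A, DYRK2, DYRK4 and HIPK1 share between 0.32% and 6.27% of theirs with a given gene of the table, among them HIPK1-AS1, an antisense RNA that shares 172 bases with HIPK1. HIPK1-AS1 had at most 17 counts in a library. Adding the counts of the sharing genes moved the log2FC of DYRK1A, DYRK2 and HIPK1 by less than the replicate spread, and the gene that shares bases with DYRK4 was at 0 counts. DCAF7 shares 1169 exon bases with ENSG00000288894 and DYRK1B 354 with ENSG00000291312, both overlapping genes on the same strand that were not analysed here.

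The genes around DCAF7 on chromosome 17 were followed to see whether they fell with it. None of the 5 nearest tested protein-coding genes on each side passed an adjusted p of 0.05 by edgeR or by DESeq2, and 2 of the 10 had an unadjusted p under 0.05 by edgeR. TACO1, a mitochondrial translation factor that starts 6.60 kb beyond the end of DCAF7, was at 37.2 ± 1.87 CPM in the controls and 37.1 ± 0.96 CPM after depletion (log2FC 0.00 ± 0.07). MAP3K3, a MAP kinase kinase kinase, was at 44.9 ± 4.30 and 44.7 ± 0.27 CPM. On the other side, ACE, the angiotensin-converting enzyme, had a log2FC of 0.49 ± 0.21 (edgeR adjusted p = 0.141), CYB561 one of -0.04 ± 0.12 and TANC2 one of 0.14 ± 0.09. STRADA, LIMD2, MRC2 and TLK2 ran from -0.18 to 0.29 on the log2 scale, and AC046185.1 was too scarce to place (0.68 ± 1.24). Without shNTC+Dox replicate 3, ACE (0.74, edgeR adjusted p = 0.0102) and STRADA (-0.21, edgeR adjusted p = 0.0489) passed.

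**Figure D4:**
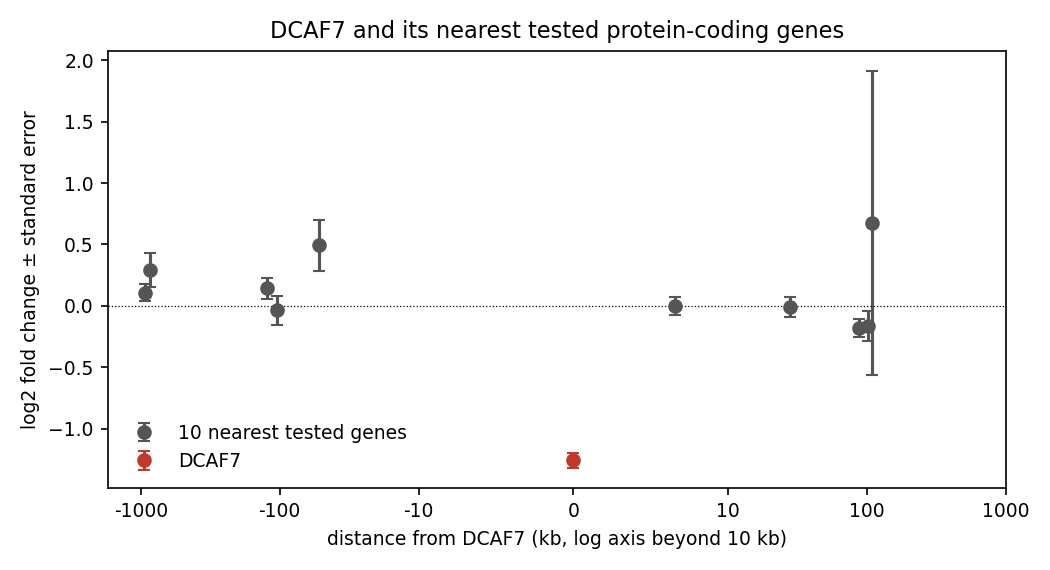
Log2 fold change (shEHD1+Dox minus shNTC+Dox) with its standard error for DCAF7 (red) and the 5 nearest tested protein-coding genes on each side (grey), against their distance in kb (log scale beyond 10 kb). DCAF7 stands at -1.26 and its nearest neighbours TACO1 and MAP3K3 at 0.00 and -0.01; the point with the long error bar is AC046185.1.

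The 7-base word AAGCTCT was looked for in the 3′ UTRs, on the transcript strand, because earlier results of these data had its carriers lower. Among tested genes with a 3′ UTR of 50 bases or more, 19.8% of carriers were lower at an adjusted p under 0.05. The word came from this same contrast, so this share and those in the next paragraph restate that choice. The canonical GENCODE transcripts of 3 of the 8 genes, DCAF7, DYRK1A and HIPK2, hold the word, and the sites are shown with it in capitals.
DCAF7, chr17:63593832-63593861, plus strand: tctgaaatgttAAGCTCTaactgatccatt
DYRK1A first site, chr21:37522726-37522755, plus strand: tcacttccaggAAGCTCTgaagaatcaagt
DYRK1A second site, chr21:37526066-37526095, plus strand: gttactgctttAAGCTCTtcccatgttgtt
HIPK2, chr7:139568682-139568711, minus strand: tcactaggaccAAGCTCTcaagcagaggga
The word of DCAF7 starts at base 4671 of a 3′ UTR of 5094 bases. The 3 carriers had different values, with a log2FC of -1.26 for DCAF7, 0.00 for DYRK1A with 2 sites and 0.66 for HIPK2. The 3′ UTR of EHD1 holds no such word.

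Of 12946 tested genes whose 3′ UTR has 50 bases or more, 14.0% held the word. Their median log2FC was -0.07, against 0.02 for genes without it, of which 8.16% were lower at an adjusted p under 0.05. Carriers had longer 3′ UTRs, with a median of 3230 bases against 1139. Where the 3′ UTR has 5000 bases or more, as in DCAF7, the shares lower were 14.1% of carriers and 10.2% of the others, with medians of -0.03 and 0.04. Higher at an adjusted p under 0.05 were 7.17% of all carriers and 11.2% of all genes without the word. With 3′ UTRs of 5000 bases or more, these shares were 8.70% and 15.4%. A match describes the letters only, and the part of the word in any of these values was not tested.

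The genes whose levels followed DCAF7 most closely were found by the root mean square difference of log2 CPM, each gene centred on its mean over the 6 libraries, among 13160 genes with a symbol and a mean of at least 1 CPM. They were SELENOP, a secreted selenium carrier (0.06), SCNN1G, a subunit of the epithelial sodium channel (0.07), KIF14, a mitotic kinesin (0.07), EPAS1, a hypoxia-inducible transcription factor (0.08), and ANGEL2, an RNA-processing enzyme (0.09). KIF14 went from 85.0 ± 1.71 to 33.7 ± 0.92 CPM and SELENOP from 26.3 ± 1.20 to 11.6 ± 0.16 CPM. SCNN1G went from 53.4 ± 1.22 to 24.0 ± 1.10 CPM, EPAS1 from 13.5 ± 0.24 to 5.84 ± 0.42 CPM and ANGEL2 from 53.3 ± 3.01 to 23.4 ± 1.86 CPM. The measure selects genes whose fall has the size of that of DCAF7.

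The kinases nearest to the set were DYRK3, HIPK4 and the CLK kinases, which phosphorylate splicing factors. Of 5 tested, 3 fell and 0 rose by edgeR (0 also at an unadjusted p under 0.05 and by DESeq2), with a median log2FC of -0.32. Over all tested genes, against which this and the following lists are set, 8.59% rose, 8.75% fell and the median was 0.00. DYRK3, which dissolves stress granules, fell from 57.5 ± 3.03 to 42.5 ± 1.19 CPM (log2FC -0.44 ± 0.07, edgeR adjusted p = 0.00484). CLK1 fell from 39.5 ± 11.0 to 21.7 ± 1.64 CPM (log2FC -0.86 ± 0.18, edgeR adjusted p = 0.0156) and CLK2 from 56.8 ± 0.58 to 45.4 ± 2.37 CPM. Control levels of CLK1 were uneven, at 34.1, 32.2 and 52.1 CPM in shNTC+Dox replicates 1, 2 and 3. Its log2FC ran from -0.99 to -0.61 over the fits without 1 library. The call of CLK1 was lost when either of shEHD1+Dox replicates 1 and 2 was left out (edgeR adjusted p of up to 0.0622), and that of CLK2 without shNTC+Dox replicate 2 or shEHD1+Dox replicate 1 or 3 (up to 0.0811). HIPK4 had at most 5 counts in a library and was not tested.

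Among 18 genes reported as partners of DCAF7, 4 rose and 0 fell by edgeR (2 were lower at an unadjusted p under 0.05, and 1 by DESeq2), with a median log2FC of 0.05. PCGF5, a Polycomb subunit, rose from 6.88 ± 1.05 to 12.7 ± 1.05 CPM (log2FC 0.88 ± 0.15, edgeR adjusted p = 0.00551), and the formin DIAPH1 from 220.3 ± 16.1 to 296.3 ± 7.97 CPM. MAP3K1, an activator of JNK signaling (log2FC 0.55 ± 0.12, edgeR adjusted p = 0.0180), and the repair nuclease subunit ERCC4 (0.30 ± 0.08, edgeR adjusted p = 0.0376) completed the 4. MAP3K1 was lost without shNTC+Dox replicate 1 or shEHD1+Dox replicate 2 or 3 (edgeR adjusted p of up to 0.0673). Among the fits without 1 library, ERCC4 held only without shNTC+Dox replicate 3 (edgeR adjusted p of up to 0.107 in the others).

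The ubiquitin ligase that gives DCAF7 its name was read through 25 genes, its core and other substrate receptors. Of these, 4 rose, 2 fell and 19 did not pass, with a median log2FC of 0.04, and none passed the 2-fold threshold. DTL, a receptor active at replicating DNA, fell from 110.5 ± 19.5 to 60.1 ± 13.0 CPM (log2FC -0.88 ± 0.17, edgeR adjusted p = 0.0144), a call lost without shEHD1+Dox replicate 3 (edgeR adjusted p = 0.0589). DCAF4 rose from 23.2 ± 0.42 to 31.3 ± 0.72 CPM (log2FC 0.44 ± 0.08, edgeR adjusted p = 0.00641). DCAF16 (-0.29 ± 0.07, edgeR adjusted p = 0.0189) held only without shNTC+Dox replicate 3 or shEHD1+Dox replicate 2 among the left-out libraries (edgeR adjusted p of up to 0.0859). The scaffold CUL4B (0.33 ± 0.07, edgeR adjusted p = 0.0168) was lost without shNTC+Dox replicate 1 or shEHD1+Dox replicate 1 or 3 (edgeR adjusted p of up to 0.0749).

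The list for the DREAM complex, which DYRK1A helps to assemble, also holds MYBL2, not itself a DREAM subunit. MYBL2 had a log2FC of -0.28 ± 0.12 and did not pass. The 12 genes of the list gave 2 rises and 1 fall, with a median log2FC of -0.16. Of the 12, 10 were below 0, as were 8379 of all 16785 tested genes. The pocket proteins RBL1 and RBL2 moved in opposite directions. RBL1 (p107) fell from 68.5 ± 4.42 to 44.5 ± 8.77 CPM (log2FC -0.62 ± 0.13, edgeR adjusted p = 0.0132), and RBL2 (p130) rose from 85.0 ± 8.99 to 117.7 ± 3.68 CPM (log2FC 0.47 ± 0.09, edgeR adjusted p = 0.00742). The fall of RBL1 was lost without shEHD1+Dox replicate 1 or 3 (edgeR adjusted p of up to 0.0576). E2F5 (0.25 ± 0.07, edgeR adjusted p = 0.0398) passed in none of the fits without 1 library except that without shNTC+Dox replicate 3 (edgeR adjusted p of up to 0.139). LIN52, the DYRK1A substrate in the complex, was at 18.3 ± 2.78 and 15.6 ± 0.90 CPM and did not pass.

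Calcineurin and NFAT genes, whose signal DYRK1A opposes, had the highest median of the 7 lists, at 0.31. All 10 tested had a log2FC above 0, as did 8406 of the 16785 tested genes, and 4 passed as rises, beside 8.59% of tested genes. NFATC2 rose from 2.20 ± 0.16 to 4.47 ± 0.19 CPM (log2FC 1.02 ± 0.18, edgeR adjusted p = 0.00632), and PPP3CB, a catalytic subunit of calcineurin, from 105.1 ± 1.46 to 140.9 ± 2.76 CPM (0.42 ± 0.06, edgeR adjusted p = 0.00245). NFATC1 (0.54 ± 0.14, edgeR adjusted p = 0.0321) was lost without shNTC+Dox replicate 2 or any 1 of the shEHD1+Dox libraries (edgeR adjusted p of up to 0.106). The inhibitor RCAN3 (0.29 ± 0.08, edgeR adjusted p = 0.0452) held, among these fits, only without shNTC+Dox replicate 3 (up to 0.147 in the others). RCAN1, a well-known NFAT target, was at 6.85 ± 0.70 and 6.94 ± 0.36 CPM.

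Of 20 tested substrates of DYRK kinases, 3 rose and 3 fell, with a median log2FC of -0.02. For this list and the HIPK list below, the values are transcript levels. Phosphorylation of the proteins and kinase activity were not measured in these libraries. JUN, an AP-1 subunit, rose from 9.61 ± 2.61 to 21.3 ± 2.46 CPM (log2FC 1.14 ± 0.19, edgeR adjusted p = 0.00486), and cyclin D3 (CCND3) fell from 41.1 ± 4.93 to 27.0 ± 0.75 CPM (-0.61 ± 0.10, edgeR adjusted p = 0.00452). MYC (-0.30 ± 0.06, edgeR adjusted p = 0.0129) and the rise of CDKN1B, the cell cycle inhibitor p27 (0.33 ± 0.07, edgeR adjusted p = 0.0116), were each lost without shNTC+Dox replicate 1 or shEHD1+Dox replicate 1 (edgeR adjusted p of up to 0.0697). Among the fits without 1 library, SPRY2 (0.54 ± 0.16, edgeR adjusted p = 0.0473) held only without shNTC+Dox replicate 1 (up to 0.138 in the others). The fall of EIF2B5 (-0.28 ± 0.07, edgeR adjusted p = 0.0288) held only without shNTC+Dox replicate 2 or 3 (up to 0.107 in the others).

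Of 19 tested substrates and partners of HIPK kinases, 2 rose and 3 fell, with a median log2FC of -0.10. The falls were those of HMGA1, a chromatin protein, and of SP100 and DAXX, both constituents of PML nuclear bodies, where HIPK2 is known to reside. SP100 fell from 17.2 ± 3.11 to 5.42 ± 0.31 CPM (log2FC -1.67 ± 0.16, edgeR adjusted p = 4.23e-04) and DAXX from 84.3 ± 5.07 to 59.7 ± 1.31 CPM (-0.50 ± 0.07, edgeR adjusted p = 0.00264). PML itself rose from 22.9 ± 0.94 to 30.4 ± 1.80 CPM (log2FC 0.41 ± 0.09, edgeR adjusted p = 0.0132), a call lost without shNTC+Dox replicate 1 or shEHD1+Dox replicate 1 or 3 (edgeR adjusted p of up to 0.0703). CTBP2, a corepressor bound by HIPK2 (0.26 ± 0.07, edgeR adjusted p = 0.0329), held among these fits only without shNTC+Dox replicate 3 (up to 0.116 in the others).

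**Figure D5:**
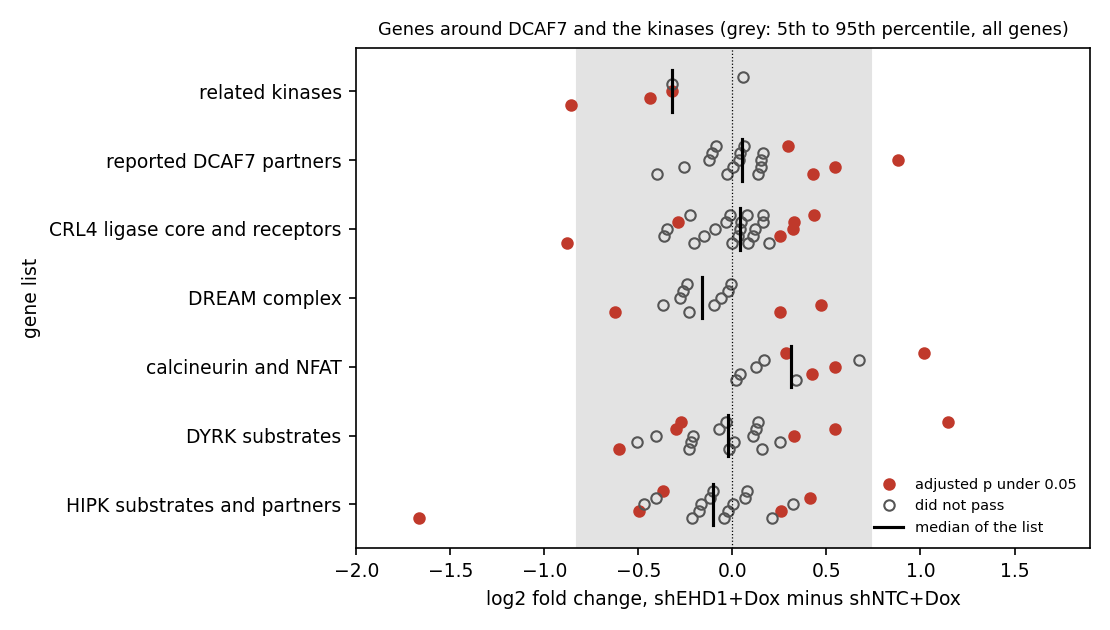
Log2 fold change (shEHD1+Dox minus shNTC+Dox) of each tested gene in 7 lists, with filled red points for an edgeR adjusted p under 0.05, open points for genes that did not pass and a bar at the median; the grey band runs from the 5th to the 95th percentile of all tested genes. Medians run from -0.32 for the related kinases to 0.31 for calcineurin and NFAT, and the lowest point is SP100 at -1.67.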

How the data were processed

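Per the labels and the study's methods, total RNA of 6 TC71 libraries was prepared with TruSeq RNA v2, which keeps no strand, and sequenced as paired ends. The methods name hisat2 on hg38 under Ensembl annotations and StringTie, while the submitters' processing notes name STAR 2.7.3a and DESeq2. How gene counts were derived is not given in the sources used here. The deposited values are whole-number counts per gene, not normalized. Nothing says that replicates were separate cultures, so p-values measure the spread between these libraries, which may be technical.

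Counts were scaled by TMM, and the 16785 genes that reached 10 counts in 3 or more libraries were tested in R 4.3.3 with edgeR 4.0.16 (robust quasi-likelihood test, Benjamini-Hochberg adjustment). "Rose" and "fell" mean an adjusted p under 0.05. A 2-fold threshold was added where stated. Alternative fits used DESeq2 size factors, upper-quartile scaling, no filter, a filter of 10 counts in all libraries, DESeq2 1.42.0 with its Wald test, a block for the replicate number, or 1 library fewer. Other alternatives summed genes with shared exons, took the longest transcript as length, or ranked likeness with a prior count of 0.5 in place of 2 or by Pearson correlation. The fits were tested on simulated data.

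Gene positions, exon lengths and UTRs are those of GENCODE release 44 on hg38 (99.5% of identifiers matched). The 8 genes, the lists and the 7-base word were chosen with earlier results of these data known. Named in the text were the 8 genes, EHD1, DYRK3, HIPK4, the 5 genes most like DCAF7, its neighbours, and from each list the 2 largest rises and falls that passed at a mean of at least 1 CPM. The other list genes named (CLK2, DIAPH1, ERCC4, LIN52, MYBL2, PPP3CB, RCAN1, RCAN3, CDKN1B, EIF2B5 and HMGA1) were chosen after their values were seen. Protein sequences were not analysed here, and some list genes are not reported here.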

Additional observations from a re-analysis of the deposited data

How the results depend on the processing

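The log2 fold change of DCAF7 ran from -1.28 to -1.23 over the fits that left out 1 library, and stood at -1.26 under the replicate block. In 12 alternative fits, each of the 8 genes moved by less than its spread between replicates. EHD1 ran from -1.88 to -1.68 over the left-out libraries and was -1.77 under the block. Deviations of same-numbered libraries correlated at -0.06 to 0.07 across genes, so the numbers gave no pairing. Under the block, 365 genes passed both thresholds in place of 473, and 1766 in place of 2910 an adjusted p alone. Left-out libraries gave 293 to 452 genes past both thresholds, the lowest without shEHD1+Dox replicate 3, and 1322 to 3616 past the adjusted p.

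List counts depended more on single libraries. Without 1 library, rises ran from 2 to 4 for the DCAF7 partners, 1 to 5 for the ligase, 1 to 2 for DREAM, 2 to 4 for calcineurin and NFAT, 1 to 2 for the DYRK substrates and 0 to 4 for the HIPK list. Falls ran from 1 to 3 for the related kinases, 0 to 4 for the ligase, 0 to 2 for DREAM, 1 to 3 for the DYRK substrates and 3 to 4 for the HIPK list. Each low end was reached without shEHD1+Dox replicate 1 or 3, in some lists also without others, and the high ends of the ligase and the HIPK list without shNTC+Dox replicate 3. Under the replicate block, rises were 2 for the DCAF7 partners, the ligase, calcineurin and NFAT, and the DYRK substrates. They were 1 for DREAM and the HIPK list. Calls of MAP3K1, ERCC4, DCAF16, E2F5, NFATC1, RCAN3, SPRY2, EIF2B5, MYC and CTBP2 were lost under the block, and that of SPRY2 also with no filter. With the longest transcript as gene length, 0 genes changed place in the order of levels in shNTC+Dox and 3 in shEHD1+Dox (DYRK1A, DYRK1B and DYRK4). A prior count of 0.5 gave the same 5 genes most like DCAF7, and Pearson correlation gave 0 of them. Low counts left HIPK4, RUNX1, RCAN2 and CCND2 untested.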
